A study of Mus musculus with 6 samples.

Results

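Tumor-associated macrophages are commonly recognised in tissue RNA by a small set of transcripts, and 10 such genes were followed here in mouse lung tumors: the complement C1q chains *C1qa*, *C1qb* and *C1qc*, the secreted proteins *Apoe* and *Spp1*, the surface receptors *Csf1r*, *Adgre1*, *Mrc1* and *Trem2*, and the lysosomal protein *Cd68*. They were chosen by name, are 10 of the 31130 genes of the count tables, and all 10 passed the filter on low counts. Tumor tissue taken on day 21 gave 3 samples of a model with lung cancer alone (LC) and 3 samples of a model with interstitial pneumonia and lung cancer (IP + LC), each called a tumor here. Both models used female wild-type C57BL/6 mice, 6 to 8 weeks old, that carried cells of 1 line, GFP-labelled Lewis lung carcinoma, which had been injected into the left lung on day 14. The IP + LC mice had received bleomycin, which injures alveolar epithelium and is followed by fibrosis, at 2.0 mg/kg by oropharyngeal aspiration on day 0, and the LC mice had not. Counts are of unique molecular identifiers (UMIs), 1 for each captured 3′ end. Levels are UMIs per 1e+06 UMIs of the tested genes (CPM), with this total scaled by the trimmed mean of M-values (TMM).

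Macrophages of a growing tumor come from blood monocytes and from macrophages already in the lung, and depend on colony-stimulating factor 1, the ligand of the receptor encoded by *Csf1r*. Macrophages are the main source of C1q, which starts the classical complement pathway and also marks dying cells for uptake. *Spp1* (osteopontin) and *Apoe* (a lipid carrier) are typical of macrophages in tumors and scars, but carcinoma cells and epithelium can also express them. Expression in bulk tissue mixes cell number and cell state, so that fewer cells of a type and less RNA per cell cannot be told apart in any result given here.

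The tumors held from 592733 to 1631066 UMIs. LC replicate 1 was the smallest library, and the other 5 held at least 1336919. LC replicate 1 also stood apart from its group: the common biological coefficient of variation was 33.2% among the 3 LC tumors, 13.7% between LC replicates 2 and 3, and 10.9% among the 3 IP + LC tumors. It had 15182 genes with a UMI, against 19516 to 24293 in the others. Mitochondrial transcripts took 3.84%, 9.38% and 11.96% of UMIs in LC replicates 1, 2 and 3 and 8.32%, 4.40% and 5.69% in IP + LC replicates 1, 2 and 3, and their part in the group differences was not tested. LC replicate 1 is therefore shown apart throughout, and the results on the 10 members are given with and without it. The labels name lung cancer cells as the cell type. The tissue also held host lung: summed markers of type 2 alveolar cells, led by *Sftpc*, stood at 36697 to 46036 CPM in LC tumors and at 6711 to 12094 in IP + LC tumors. The p-values measure the spread between the 3 tumor samples of each group.

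In RefSeq's promoter table, 7 of the 10 members had at least 1 window, 10 windows in all. The 250 bases before the start are shown for *C1qb* and *Spp1*, whose transcripts were high together in the same tumors, for *Trem2*, which was also higher in the IP + LC tumors than in LC replicates 2 and 3, and for *Apoe*, which did not follow them. Capitals mark GAGGAA, the core of sites bound by PU.1 (the myeloid lineage factor encoded by *Spi1*), on either strand (TTCCTC on the opposite one), and TGCTGA, part of the element bound by MAF factors, on either strand; no 2 matches overlapped. The windows are on GRCm38.p6, and each is written 5′ to 3′ on the strand of its gene.
C1qb (chr4:136886201-136886450, minus strand): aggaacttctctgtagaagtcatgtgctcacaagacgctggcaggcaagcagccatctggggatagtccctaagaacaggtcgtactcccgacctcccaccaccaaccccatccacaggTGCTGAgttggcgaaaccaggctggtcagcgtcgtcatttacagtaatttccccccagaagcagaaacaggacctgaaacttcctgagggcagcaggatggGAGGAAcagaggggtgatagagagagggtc
Spp1 (chr5:104434861-104435110, plus strand): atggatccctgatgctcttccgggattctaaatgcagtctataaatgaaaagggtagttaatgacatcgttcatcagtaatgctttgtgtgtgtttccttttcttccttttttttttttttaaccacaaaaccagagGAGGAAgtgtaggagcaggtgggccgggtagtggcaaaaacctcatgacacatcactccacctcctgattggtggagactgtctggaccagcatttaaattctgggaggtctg
Trem2 (chr17:48346151-48346400, plus strand): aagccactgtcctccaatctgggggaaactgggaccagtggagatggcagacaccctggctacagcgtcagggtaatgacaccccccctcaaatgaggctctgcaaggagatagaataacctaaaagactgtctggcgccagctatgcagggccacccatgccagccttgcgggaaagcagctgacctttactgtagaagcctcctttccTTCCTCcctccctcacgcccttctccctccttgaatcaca
Apoe (chr7:19699189-19699438, minus strand): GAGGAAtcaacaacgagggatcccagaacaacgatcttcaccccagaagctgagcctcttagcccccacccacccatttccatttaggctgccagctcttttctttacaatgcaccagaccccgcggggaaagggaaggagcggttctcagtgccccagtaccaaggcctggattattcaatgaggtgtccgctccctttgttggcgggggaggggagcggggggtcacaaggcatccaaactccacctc
The first base of GAGGAA lay 30 bases before the start in *C1qb*, 113 in *Spp1* and 250 in *Apoe*, and its complement lay 40 bases before that of *Trem2*. The letters occurred in 8 of the 10 member windows and in at least 1 window of each of the 7 genes, against 23.3% of all 32851 windows of this length. TGCTGA occurred in the *C1qb* window, 131 bases before the start, and in 16.1% of all windows. These are matches of letters, present in the window of *Apoe* as in those of *C1qb*, *Spp1* and *Trem2*.

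The 3 C1q chains were several times more abundant in every IP + LC tumor than in LC replicates 2 and 3, and LC replicate 1 was close to the IP + LC range. *C1qa* (ENSMUSG00000036887, chr4:136895917-136898803) stood at 568, 157 and 110.2 CPM in LC replicates 1, 2 and 3 and at 585, 791 and 733 in IP + LC replicates 1, 2 and 3. All 3 IP + LC tumors were above all 3 LC tumors, by a narrow margin over LC replicate 1. The log2 fold change was 1.36 (SE 0.53, edgeR adjusted p = 0.0896), and *C1qa* passed the limit of 0.1 used for differentially expressed genes. This call was lost with upper quartile scaling (adjusted p = 0.113) and after thinning of all libraries to the smallest (adjusted p = 0.109). *C1qc* (ENSMUSG00000036896, chr4:136889804-136893065) stood at 529, 194 and 108 in the LC tumors and at 567, 752 and 680 in the IP + LC tumors. The groups again did not overlap, and the log2 fold change was 1.28 (SE 0.49, edgeR adjusted p = 0.0815, and 0.105 with upper quartile scaling). *C1qb* (ENSMUSG00000036905, chr4:136880129-136886187) stood at 580.3, 179 and 99.995 in LC and at 524, 698 and 619 in IP + LC. Here LC replicate 1 was above IP + LC replicate 1, and the log2 fold change of 1.12 (SE 0.54, edgeR adjusted p = 0.154) did not pass. Without LC replicate 1, the log2 fold changes were 2.40, 2.14 and 2.14 for *C1qa*, *C1qb* and *C1qc* (edgeR adjusted p = 1.86e-07, 1.80e-06 and 1.75e-06), about 4.4-fold to 5.3-fold. Summed over the 3 chains, C1q reached 842 ± 731 (SD, n = 3) in LC and 1983 ± 286 (SD, n = 3) in IP + LC tumors.

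**Figure D1:**
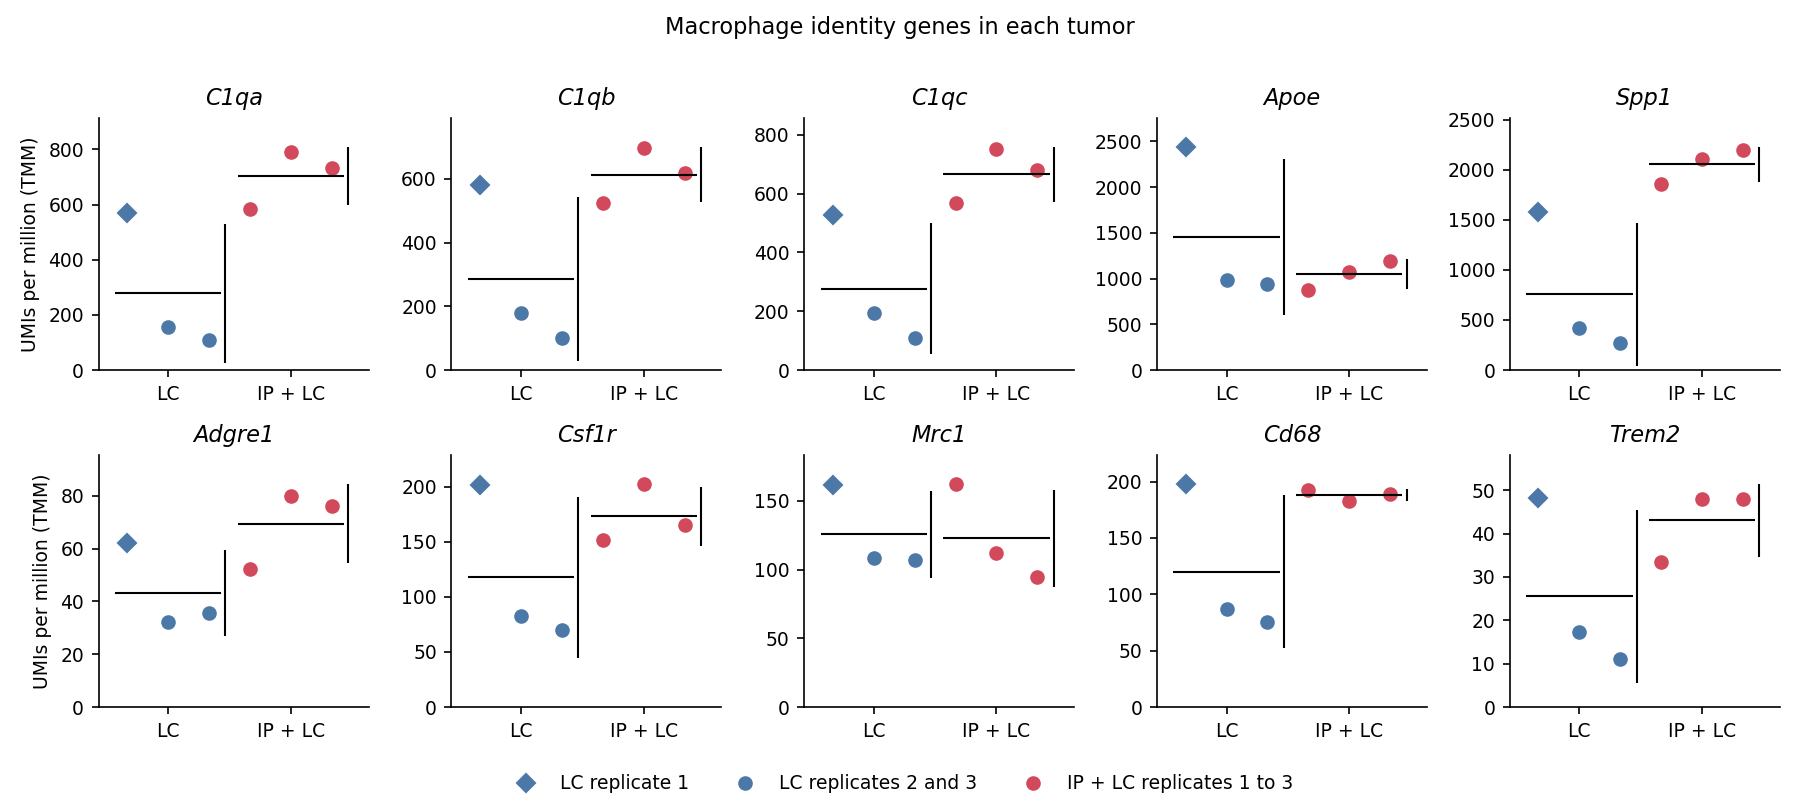
Level of each of the 10 genes in each tumor, in TMM-scaled CPM, on linear axes from 0. Points are tumors (diamond, LC replicate 1), horizontal lines group means and vertical lines 1 SD of 3 tumors. In *C1qa*, *C1qc* and *Spp1* all 3 IP + LC tumors lie above all 3 LC tumors, and in all 10 panels LC replicate 1 is the highest LC tumor.

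The genes of the 3 chains lie side by side within 18675 bases of chromosome 4, on the minus strand, and the protein needs all 3 in equal number. Their shares of the C1q UMIs were nearly equal in every tumor, between 29.5% and 36.6%. *C1qa* took 32.7% ± 2.7 (SD, n = 3) in LC and 35.4% ± 0.60 in IP + LC tumors, and *C1qb* 33.3% ± 1.7 and 31.0% ± 0.43. In both chains the groups did not overlap, with a two-sided exact permutation p of 0.1 (adjusted 0.15 over the 3 chains), which is the smallest that 3 tumors against 3 can give. For *C1qc* the shares were 34.1% ± 2.6 and 33.6% ± 0.20 (exact permutation p = 0.7, n = 3 per group). The Wilson 95% interval of *C1qa* ran from 26.2% to 33.1% in LC replicate 2 and from 29.9% to 39.5% in LC replicate 3, so that a shift of this size was near the counting error of single LC tumors. Leaving out 1 tumor moved the *C1qa* difference from 2.77 to between 1.21 and 3.72 percentage points. For *C1qb* it moved from -2.31 to between -3.25 and -1.64, and for *C1qc* from -0.46 to between -1.74 and 0.82.

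Osteopontin and apolipoprotein E, the 2 secreted proteins, gave different patterns. *Spp1* (ENSMUSG00000029304, chr5:104435118-104441050), a matrix protein that binds CD44 and integrins, stood at 1576, 417 and 275 CPM in LC and at 1856, 2111 and 2193 in IP + LC tumors. The groups did not overlap, and the log2 fold change of 1.45 was the largest of the 10 (SE 0.56, edgeR adjusted p = 0.0860, and 0.108 with upper quartile scaling). Without LC replicate 1 it was 2.58, a 5.97-fold difference (edgeR adjusted p = 9.42e-08). The gene model Gm42793, which shares 18.8% of the exonic bases of *Spp1*, had 3 UMIs in all 6 tumors together. *Apoe* (ENSMUSG00000002985, chr7:19696109-19699188), which carries cholesterol out of lipid-loaded macrophages, stood at 2442, 989 and 941 in LC and at 872, 1071 and 1197 in IP + LC tumors. LC replicate 1 was more than 2-fold above each of the other 5 tumors, which lay close together. The log2 fold change was -0.47 (SE 0.37, edgeR adjusted p = 0.376), and 0.13 without LC replicate 1 (adjusted p = 0.488), so that no direction can be given. In UMIs of *Spp1* per 100 of *Apoe*, a quotient chosen after the values had been seen, the LC tumors held 64.5, 42.2 and 29.2 and the IP + LC tumors 213, 197 and 183. LC replicate 1 was on the LC side of this quotient, although each gene alone was high in it.

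Among the receptors, *Adgre1* passed the test and *Mrc1* gave no direction that held. *Adgre1* (ENSMUSG00000004730, chr17:57358691-57483527), which encodes the macrophage surface antigen F4/80, stood at 62.0, 32.1 and 35.6 in LC and at 52.2, 80.0 and 76.2 in IP + LC tumors. IP + LC replicate 1 lay below LC replicate 1, and the log2 fold change was 0.74 (SE 0.29, edgeR adjusted p = 0.0923). This call was lost with the DESeq2 test (0.72, adjusted p = 0.142), with upper quartile scaling (0.68, adjusted p = 0.129) and after thinning of all libraries to the smallest (0.37, adjusted p = 0.508). *Csf1r* (ENSMUSG00000024621), the receptor through which macrophages are kept alive, stood at 201, 82.3 and 69.5 in LC and at 152, 203 and 165 in IP + LC tumors. Its log2 fold change of 0.59 (SE 0.38, edgeR adjusted p = 0.274) did not pass. Without LC replicate 1 it was 1.20 (edgeR adjusted p = 5.24e-05). *Hmgxb3*, which shares 15.1% of the exonic bases of *Csf1r*, had at most 7 UMIs in a tumor. *Trem2* (ENSMUSG00000023992, chr17:48346401-48354147), a receptor for lipids and for apolipoprotein E, stood at 48.2, 17.2 and 11.02 in LC and at 33.4, 47.9 and 47.9 in IP + LC tumors. LC replicate 1 was above all 3 IP + LC tumors, and the log2 fold change of 0.94 (SE 0.44, edgeR adjusted p = 0.150) did not pass. Without LC replicate 1 it was 1.61 (edgeR adjusted p = 0.000263). *Trem2* had the fewest UMIs of the 10, down to 13 in LC replicate 3. The mannose receptor gene *Mrc1* (ENSMUSG00000026712, chr2:14229392-14332057), used as a marker of scavenging and alternatively activated macrophages, stood at 162, 108 and 107 in LC and at 162, 112 and 94.4 in IP + LC tumors. The groups overlapped almost wholly, with a log2 fold change of -0.02 (SE 0.27, edgeR adjusted p = 0.974). Without LC replicate 1 it was 0.20 (edgeR adjusted p = 0.423).

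*Cd68* (ENSMUSG00000018774, chr11:69664213-69666153), a lysosomal membrane protein of macrophages, was the most even member among the IP + LC tumors. It stood at 193, 183 and 189 there, a mean of 188 ± 5.1 (SD, n = 3), and at 198, 87.0 and 75.4 in LC tumors. LC replicate 1 was thus above all 3 IP + LC tumors, and LC replicates 2 and 3 were far below them. The log2 fold change was 0.68 (SE 0.34, edgeR adjusted p = 0.172) with all tumors and 1.22 (SE 0.15, edgeR adjusted p = 1.17e-05) without LC replicate 1.

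In all, 4 of the 10 members (*C1qa*, *C1qc*, *Spp1* and *Adgre1*) passed as higher in IP + LC tumors, against 16.8% of the 11240 genes tested. None passed as lower in edgeR, against 19.6% of the tested genes; 0 were lower at an unadjusted p below 0.05, and 0 passed as lower with DESeq2 or with limma voom. The groups did not overlap, IP + LC above LC, in 3 of the 10, against 21.6% of the tested genes. The median log2 fold change of the 10 was 0.84, beside 0.02 over all tested genes. LC replicate 1 was the highest LC tumor in all 10 members, as in 41.7% of the tested genes. The count of calls turned on single tumors. Without LC replicate 1, 8 of the 10 passed as higher (the 3 C1q chains, *Spp1*, *Adgre1*, *Csf1r*, *Cd68* and *Trem2*), with 28.3% of the tested genes passing as higher and 28.7% as lower, and the median log2 fold change was 1.41, beside 0.01 over all tested genes. Without LC replicate 2, LC replicate 3, IP + LC replicate 1, IP + LC replicate 2 or IP + LC replicate 3, 0 members passed in edgeR. At an unadjusted p below 0.05, 3 were higher without IP + LC replicate 1 and 0 without each of the other 4. The lowest adjusted p of a member was 0.246, 0.157, 0.102, 0.195 and 0.172 in these 5 fits. Of all tested genes, 8.81%, 11.2%, 9.25%, 7.61% and 11.1% passed as higher in the same fits, so that a count of 0 among 10 is near the background.

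**Figure D2:**
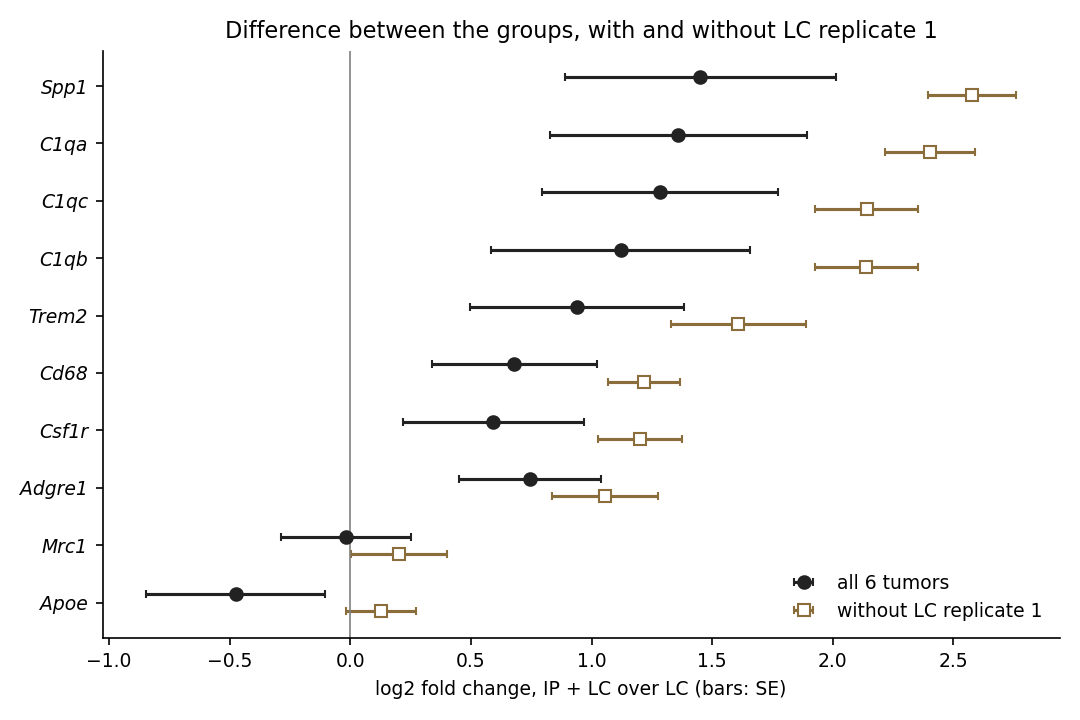
Log2 fold change of each gene, IP + LC over LC, with its SE, from edgeR with all 6 tumors (filled circles) and without LC replicate 1 (open squares). Without that tumor, 8 genes lie between 1.05 and 2.58, and *Apoe* and *Mrc1* at 0.13 and 0.20.

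How close LC replicate 1 came to the IP + LC tumors depended on the transcripts. On the log2 scale from the mean of LC replicates 2 and 3 (0%) to the mean of the IP + LC tumors (100%), it lay between 85.2% and 119.5% for the 8 members named above. LC replicate 1 lay at 1266% for *Apoe* and 377% for *Mrc1*. Their IP + LC means were only 1.08 and 1.14 times those of LC replicates 2 and 3. LC replicate 1 lay at 95.4% for the 6 myeloid reference transcripts and at 72.5% for 13 proliferation markers. Other macrophage lists varied: it lay at 118.3% for the TREM2 signaling and lipid-associated macrophage genes. It lay at -15.9% for the CSF1R ligands, signaling genes and lineage factors. The summed pan-macrophage markers gave -19.2%, but their IP + LC mean was only 0.704 times that of LC replicates 2 and 3. *Lyz2*, which type 2 alveolar cells also express, made up 79.0% of that sum in LC replicate 1. The resident interstitial macrophage genes gave 10.5%, and *Cbr2*, which airway epithelium also expresses, had 4000 of their 5293 CPM in LC replicate 1. The monocyte sum gave 174.9%, but the IP + LC mean was only 0.959 times that of LC replicates 2 and 3. For several lists of lung cells it stayed nearer to its own group, at 3.87% for airway epithelium, 12.6% for type 2 alveolar cells, 18.2% for alveolar macrophages and 31.2% for endothelium, whereas for lymphatic endothelium it lay at 100.3%. The part of this tumor's smaller library in these values was not tested beyond thinning all libraries to its size, after which *C1qc* and *Spp1* passed.

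**Figure D3:**
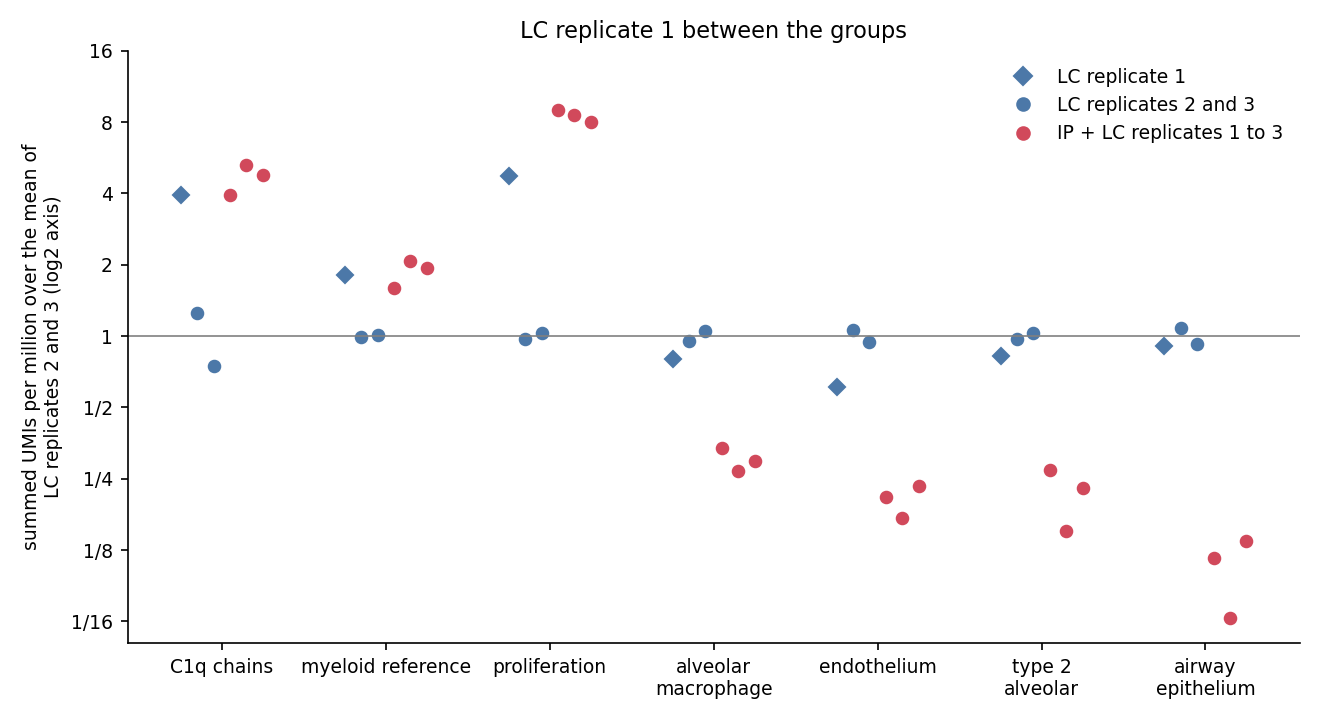
Summed level of the C1q chains, of 6 myeloid reference transcripts and of 5 marker lists in each tumor, divided by the mean of LC replicates 2 and 3, on a log2 axis. LC replicate 1 (diamond) lies with the IP + LC tumors for the C1q chains and the myeloid reference, between the groups for proliferation, and with the LC tumors for alveolar macrophages, type 2 alveolar cells and airway epithelium.

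Relating each member to 6 general myeloid transcripts of the same tumor (*Tyrobp*, *Fcer1g*, *Aif1*, *Spi1*, *Laptm5* and *Fcgr3*) asked whether the members differed beyond the myeloid RNA as a whole. The summed reference stood at 1665, 912 and 936 CPM in LC and at 1472, 1915 and 1783 in IP + LC tumors. Relative to it, *C1qa*, *C1qc* and *Spp1* were higher in all 3 IP + LC tumors than in all 3 LC tumors, and *Apoe* was lower. *C1qb* was higher in the mean but overlapped (two-sided exact permutation p = 0.2). It had 34.9 per 100 reference UMIs in LC replicate 1 and 34.7 in IP + LC replicate 3. *Adgre1*, *Csf1r*, *Mrc1*, *Cd68* and *Trem2* also overlapped between the groups. Per 100 reference UMIs, the C1q chains together had 101, 58.2 and 34.1 UMIs in LC and 114, 117 and 114 in IP + LC tumors. The IP + LC tumors were nearly equal to each other, and LC replicate 1 was below all of them. *Spp1* had 94.6, 45.7 and 29.3 per 100 in LC and 126, 110.2 and 123 in IP + LC tumors. *Apoe* had 147, 108 and 101 per 100 in LC and 59.2, 55.9 and 67.1 in IP + LC tumors, so that LC replicate 1 was at the far end from the IP + LC group. As log2 differences, IP + LC minus LC, these ratios came to 1.097 for *C1qa*, 0.87 for *C1qb*, 0.96 for *C1qc*, 1.25 for *Spp1* and -0.95 for *Apoe*.

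*C1qa*, *C1qc* and *Spp1* did not overlap between the groups in this ratio, against 5.93% of tested genes that were higher without overlap, and *Apoe* was lower without overlap, as were 33.7% of tested genes. For these 4 the two-sided exact permutation p was 0.1, the smallest possible with 3 tumors against 3, and 0.25 after adjustment over the 10 members. The differences of *Adgre1* (0.11), *Csf1r* (0.10), *Cd68* (0.18) and *Trem2* (0.41) were smaller than or near the spread within the groups, with exact permutation p from 0.3 to 0.7 (n = 3 per group). *Mrc1* had 9.72, 11.9 and 11.4 per 100 in LC and 11.03, 5.85 and 5.29 in IP + LC tumors (log2 difference -0.65, exact permutation p = 0.2), and IP + LC replicate 1 was on the LC side. Leaving out LC replicate 1, 7 members were higher (the 3 C1q chains, *Spp1*, *Csf1r*, *Cd68* and *Trem2*) and 2 lower (*Apoe* and *Mrc1*) without overlap, against 8.05% and 68.7% of tested genes. Leaving out IP + LC replicate 1, 4 were higher and 2 lower, against 6.25% and 44.7%. With *Csf1r* alone as the reference, 4 were higher (the 3 C1q chains and *Spp1*) and *Apoe* lower, against 4.58% and 24.8% of tested genes. With the summed pan-macrophage markers as the reference, the ratio of *Apoe* turned to 0.21, and 8 members were higher and 0 lower without overlap, against 46.6% and 8.91% of tested genes. *Lyz2*, which type 2 alveolar cells also express, made up 79.0% to 82.5% of that sum in LC and 47.1% to 60.1% in IP + LC tumors.

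**Figure D4:**
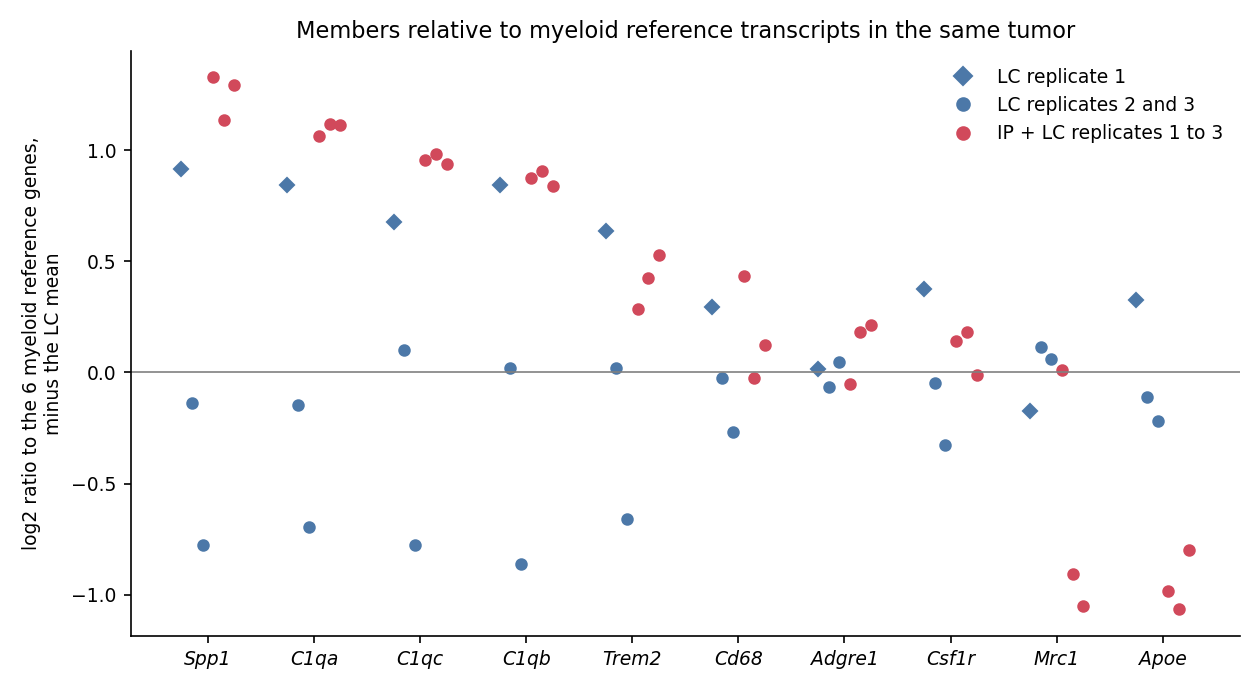
Log2 ratio of each gene's UMIs to the UMIs of 6 myeloid reference genes in the same tumor, after subtraction of the LC mean of each gene. Points are tumors (diamond, LC replicate 1). *Spp1*, *C1qa* and *C1qc* lie higher and *Apoe* lower in all 3 IP + LC tumors than in all 3 LC tumors, and *C1qb*, *Trem2*, *Cd68*, *Adgre1*, *Csf1r* and *Mrc1* overlap.

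The partners of the members were counted in the same fit, from lists of related genes, and are read against the 16.8% of all tested genes that passed as higher and the 19.6% that passed as lower. In the lists around C1q, APOE and osteopontin, the shares that passed were 30% and 30%, 14.3% and 28.6%, and 20% and 20%. With 10, 14 and 15 tested genes, these shares are not read as different from the background, and no difference was tested. Of 10 tested genes of the C1 complex, the classical pathway and the C1q receptors, 3 passed as higher and 3 as lower (median log2 fold change -0.14). *Lair1*, an inhibitory receptor that binds C1q, was higher by 2.13 on the log2 scale (21.7 ± 5.8 against 95.7 ± 21.5 CPM), and *Calr*, a chaperone that can bind C1q at the cell surface, by 1.11. *Cd93* (-1.03), an endothelial and myeloid receptor, and *Serping1* (-0.88), the C1 inhibitor, were lower. Of 14 genes of APOE and lipid efflux, 2 passed as higher and 4 as lower (median -0.27). *Lrp8* (2.42), a lipoprotein receptor gene, was higher, and *Vldlr* (-2.17) and *Apoc1* (-1.96), the apolipoprotein gene next to *Apoe*, were lower. Of 15 osteopontin receptors and processing enzymes, 3 passed as higher and 3 as lower (median -0.18). *Cd44*, a receptor of osteopontin, stood at 119, 289.9 and 269 in LC and at 394, 434 and 396 in IP + LC tumors (log2 fold change 0.84, SE 0.31, edgeR adjusted p = 0.0739), with LC replicate 1 the lowest of the 6. *Mmp12*, an elastase of macrophages, was higher (1.23), and *Thbd* (-2.40) and *Itga8* (-2.29) were lower. Leaving out 1 tumor at a time moved the counts of these 3 lists to between 0 and 5 higher and between 0 and 8 lower, with the highest counts of each list without LC replicate 1. In that fit 28.3% of all tested genes passed as higher and 28.7% as lower.

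Of 20 tested CSF1R ligands, signaling genes and lineage factors, 12 passed as higher and 1 as lower (median 0.61), against 16.8% and 19.6% of all tested genes. *Csf1*, the main ligand, stood at 129, 41.5 and 33.9 in LC and at 320.5, 287 and 253 in IP + LC tumors, without overlap (log2 fold change 2.14, SE 0.45, edgeR adjusted p = 0.00934). *Il34*, the other ligand, stood at 10.2 to 15.5 in LC and at 10.2 to 17.4 in IP + LC tumors (0.24, SE 0.33, edgeR adjusted p = 0.627). *Cebpa*, a factor of myeloid cells and alveolar epithelium, was lower (-1.41). In the list, 13 passed as higher without LC replicate 1, and without any other single tumor 6 to 9. TREM2 signaling and lipid-associated macrophage genes gave 4 higher and 2 lower of 21 (median 0.50). *Tyrobp*, the signaling partner of TREM2, stood at 479, 295 and 315 in LC and at 339, 392 and 402 in IP + LC tumors (0.06, edgeR adjusted p = 0.873). *Ctsz* (1.08), a lysosomal protease, and *Adam17* (1.01), a sheddase that cleaves TREM2, were higher, and *Fabp5* (-0.90) and *Cd9* (-0.86) were lower. Of the 21, 14 passed as higher without LC replicate 1, and 1 to 4 without any other single tumor, where 28.3% and 7.61% to 11.2% of all tested genes passed as higher.

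Of 14 tested scavenger and endocytic receptors, the family to which *Mrc1* belongs, 1 passed as higher and 7 as lower (median -0.91). *Msr1*, the class A scavenger receptor, was higher by 1.73 on the log2 scale, and *Cd36* (-2.39), which endothelium also expresses, and *Cd163* (-1.89), a hemoglobin receptor of macrophages, were lower. *Cd163* stood at 17.2, 14.9 and 14.4 in LC and at 7.25, 3.50 and 1.45 in IP + LC tumors. These values rest on few counts, 10, 19 and 17 UMIs in LC and 10, 6 and 2 in IP + LC tumors. The last is below the floor of 3 UMIs. Leaving out 1 tumor gave 1 or 2 higher and 3 to 10 lower, with 10 lower without LC replicate 1 and 3 without LC replicate 2 or IP + LC replicate 1. Of all tested genes, 3367 of 11748, 1569 of 11530 and 1572 of 11768 passed as lower in these fits, in this order. With all 6 tumors 2203 of 11240 did. Of 13 resident interstitial macrophage genes, 2 passed as higher and 4 as lower (median -0.65). *Gatm*, an enzyme of creatine synthesis, was higher by 3.15 and *Cx3cr1*, the fractalkine receptor, by 1.18. *Cbr2* (-2.95), which airway epithelium also expresses, and *Selenop* (-1.69), a selenium carrier, were lower. The defining marker *Folr2* had 1 UMI in all tumors together. Of the 13, 5 passed as higher without LC replicate 1 and 1 without LC replicate 2, where 28.3% and 8.81% of all tested genes passed as higher. As lower, 6 passed without LC replicate 3, where 1749 of 11517 tested genes passed as lower.

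**Figure D5:**
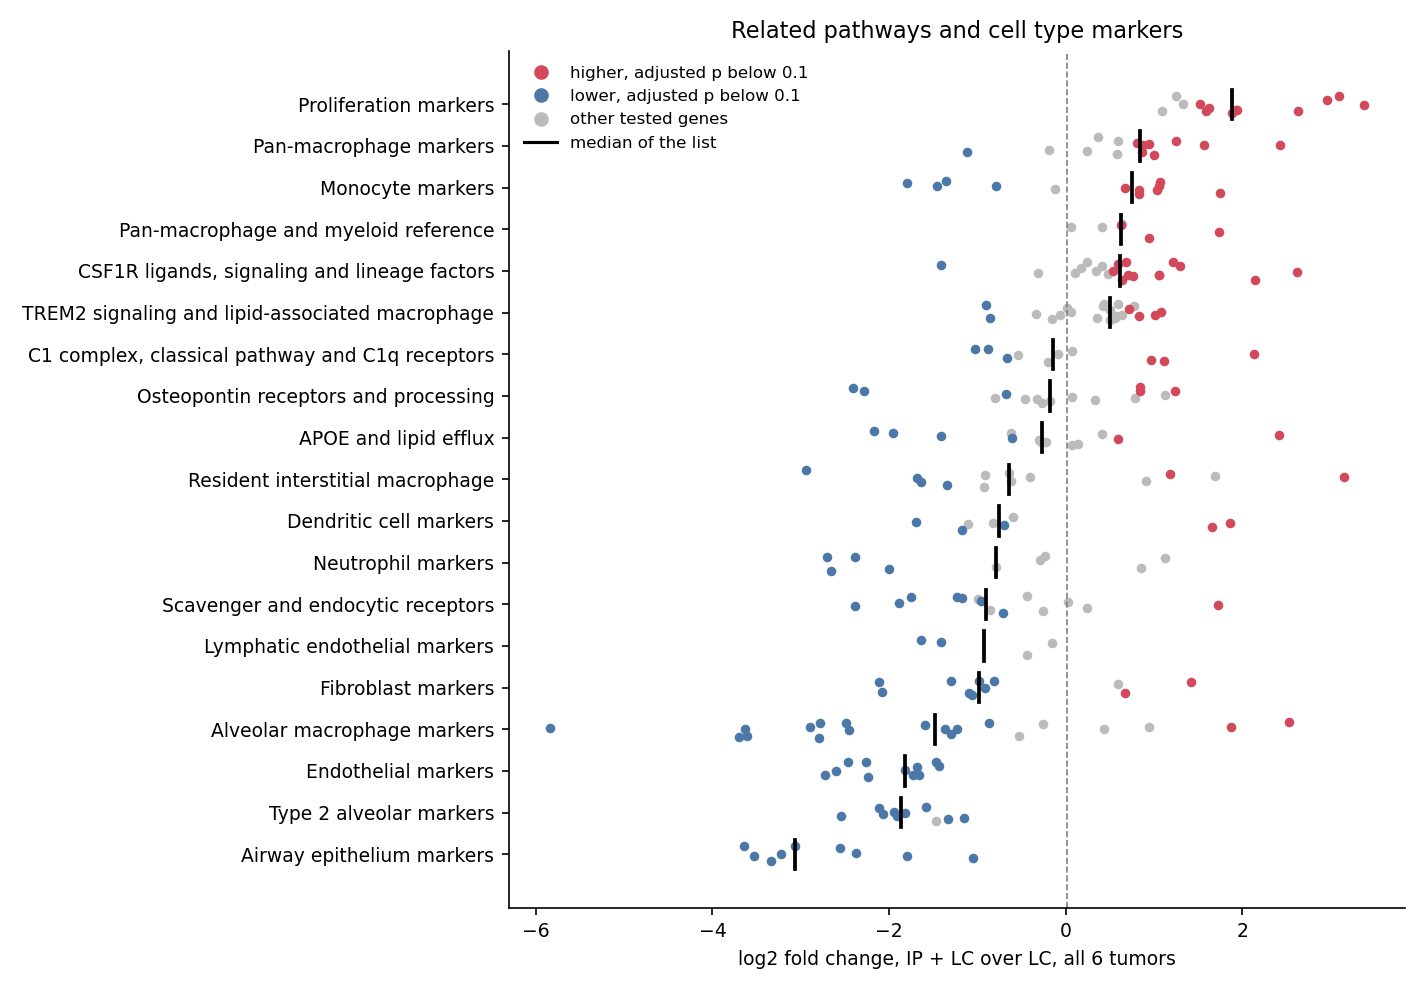
Log2 fold changes, IP + LC over LC with all 6 tumors, of the tested genes of 19 lists, ordered by the list median (black bars). Red and blue points passed as higher or lower at an edgeR adjusted p below 0.1, grey points did not, and the dashed line is the median of all tested genes, 0.02. Lung cell lists lie at the low end, down to a median of -3.07, and proliferation markers at the high end, at 1.88.

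Many markers of other cell types differed between the groups, and their part in the members' differences was not tested. Their counts are read against the 16.8% of all tested genes that passed as higher and the 19.6% that passed as lower. General pan-macrophage markers gave 8 higher and 1 lower of 14 (median 0.84), with *Fcgr1* (2.42), a high-affinity Fc receptor, and *Slc11a1* (1.56) higher and *Lyz2* (-1.11) lower. The reference genes gave 3 higher of 6 (median 0.63), *Aif1* (1.73) and *Fcgr3* (0.94) among them. They gave 6 of 6 without LC replicate 1 and 1 at most without any other tumor. In these fits 28.3% and 7.61% to 11.2% of all tested genes passed as higher. Monocyte markers gave 7 higher and 4 lower of 12 (median 0.75), with *Vcan* (1.75) and *Ms4a6c* (1.07) higher and *Ace* (-1.80) and *Nr4a1* (-1.46), which mark patrolling monocytes and also other lung cells, lower. Alveolar macrophage markers gave 14 lower and 2 higher of 20 (median -1.48). Their summed level was 2270 to 2972 CPM in LC and 761 to 951 in IP + LC tumors. *Fabp1* had 8, 24 and 25 UMIs in LC and 0, 1 and 0 in IP + LC tumors, and *Ear1* (-3.70), whose near-identical relatives make its counts uncertain, was lower, whereas *Cxcl2* (2.53) and *Il1rn* (1.87), which many myeloid cells express, were higher. *Ear6* and *Ear10* had at most 3 UMIs in any tumor.

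Neutrophil markers gave 4 lower of 9 (median -0.79), with *Retnlg* (-2.70) and *S100a9* (-2.66) lower and *Ly6g* at 2 UMIs or fewer in each tumor. Their sum was 1044 to 2163 in LC and 336 to 404 in IP + LC tumors. Dendritic cell markers gave 2 higher and 3 lower of 8 (median -0.76), or 25% and 37.5%, against 16.8% and 19.6% of all tested genes. Too few were tested to set these shares apart from that background. *Fscn1* (1.86) and *Batf3* (1.66) were higher and *Dpp4* (-1.70) and *Cd209a* (-1.17) lower. Fibroblast markers gave 2 higher and 8 lower of 11 (median -0.99), with the collagen genes *Col1a1* (1.42) and *Col1a2* (0.67) higher and *Dcn* (-2.11) and *Gsn* (-2.08) lower. Endothelial markers were lower in 11 of 11 (median -1.82), with *Ramp2* (-2.73) and *Tek* (-2.60) lowest. Lymphatic endothelial markers were lower in 2 of 4 (median -0.92), *Lyve1* (-1.64) and *Mmrn1* (-1.41), with *Ccl21a* at 1 UMI or fewer. A list of 4 is too small to set apart from the 19.6% of all tested genes. Type 2 alveolar markers were lower in 9 of 10 (median -1.86), with *Sftpa1* (-2.54) and *Sftpc* (-2.11), and airway epithelium markers in 9 of 9 (median -3.07), with *Scgb3a1* (-3.64) and *Bpifa1* (-3.53). The airway sum was 50497 to 59590 CPM in LC and 3583 to 7589 in IP + LC tumors. Proliferation markers were higher in 10 of 13 (median 1.88), with *Cenpe* (3.38) and *Cenpf* (3.10), and their sum was 947, 194 and 207 in LC and 1805, 1721 and 1598 in IP + LC tumors. The proliferation count was 13 without LC replicate 1 and 5 without any other single tumor. The monocyte count of 7 higher became 2 without IP + LC replicate 2 and 4 without LC replicate 2, and the pan-macrophage count of 8 became 5 without IP + LC replicate 2 or 3. The fibroblast count of 8 lower became 5 without IP + LC replicate 2, and the dendritic cell count of 3 lower became 5 without LC replicate 1 and 1 without LC replicate 2, LC replicate 3 or IP + LC replicate 1.

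Across the 6 tumors, the genes whose pattern was most like the C1q chains were *Adss*, *Odc1*, *Glrx3*, *Marcksl1* and *Eif6*, with Pearson r from 0.994 to 0.999 on log2(CPM + 4) among 5222 genes with at least 50 UMIs in at least 3 tumors. For *Spp1* they were *Uba1*, *Adss*, *Tacc3*, *Noc4l* and *Spc24*, with r from 0.996 to 0.998. *Odc1*, which encodes the first enzyme of polyamine synthesis, stood at 68.9, 23.5 and 14.4 in LC and at 70.3, 85.8 and 69.0 in IP + LC tumors, with LC replicate 1 beside the IP + LC range and LC replicates 2 and 3 below it. With 6 tumors in 2 groups and LC replicate 1 apart, many genes share such a pattern, and the values are a description.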

How the data were processed

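Tumor RNA of 3 LC and 3 IP + LC samples was measured by bulk RNA barcoding and sequencing from the 3′ end. Per the labels and the methods of the study, the authors extracted UMIs of 10 nucleotides with UMI-tools 1.1.1, trimmed reads with Trim Galore 0.6.7 and dropped those below 20 bp, aligned them to GRCm38 with HISAT2 2.2.1, assigned them with featureCounts 2.0.1 and counted unique UMIs. The deposited values are UMI counts per gene without normalization, 592733 to 1631066 per tumor; equal UMIs and sequencing errors in UMIs can shift high counts. The annotation release and use of strand are not given in the sources used here.

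From these counts, edgeR 4.0.16 in R 4.3.3 was fitted on all genes: filterByExpr (minimum count 10, minimum total 15), TMM, the quasi-likelihood test without a block, and Benjamini-Hochberg adjustment over 11240 genes with the study's limit of 0.1; the SE is the log2 fold change over the square root of F. Fold changes without LC replicate 1 come from a refit. Ratios and shares were tested by two-sided exact permutation; Wilson intervals cover counting error only. Alternatives were other scalings, filters, thinning (seed 1), a replicate block, DESeq2 1.42.0, limma 3.58.1 voom, robust edgeR and each tumor left out. The members and the 19 lists were chosen with earlier results of these data known. Named were all members and, per list, up to 2 genes passing with the largest increase and 2 with the largest decrease, marker genes with at most 3 UMIs in every tumor, *Csf1*, *Il34*, *Tyrobp* and *Cd44*; *Odc1* was singled out after its values were seen. Some genes that this rule names are not reported here. Coordinates are from GENCODE M21 on GRCm38 and promoters from RefSeq on GRCm38.p6, matched by symbol. The replicate numbers are not said to mark pairs, and correlations between the tumors showed no pairing by number.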

Additional observations from a re-analysis of the deposited data

How the results depend on the processing

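All 10 members were tested under each of 17 alternatives. The 8 members with a positive log2 fold change kept that direction under all 17, with ranges of 0.97 to 2.40 for *C1qa*, 0.70 to 2.14 for *C1qb*, 0.89 to 2.14 for *C1qc*, 1.05 to 2.58 for *Spp1*, 0.37 to 1.05 for *Adgre1*, 0.31 to 1.20 for *Csf1r*, 0.42 to 1.22 for *Cd68* and 0.53 to 1.61 for *Trem2*. The 4 members that passed as higher became 8 without a filter on low counts (7.87% of all tested genes passing as higher), 7 with limma voom (19.1%), 3 with DESeq2 (12.7%), 2 after thinning to the smallest library (11.5%), 0 with upper quartile scaling (14.3%; lowest adjusted p = 0.105, and 3 at an unadjusted p below 0.05) and 0 at an adjusted p below 0.05 (11.7%); the cause was not tested. Leaving out 1 tumor gave 0 to 8 members higher. *Apoe* turned to 0.13 without LC replicate 1. *Mrc1* turned to 0.13 with library size only, 0.10 without a filter, 0.002 with at least 10 UMIs in every tumor, and to 0.20, 0.07 and 0.16 when LC replicate 1, IP + LC replicate 2 or IP + LC replicate 3 was left out. Leaving out 1 tumor gave -0.72 to 0.13 for *Apoe* and -0.25 to 0.20 for *Mrc1*.

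Relative to the myeloid reference, 8 members were higher and 0 lower without overlap with the pan-macrophage markers as the reference in place of 3 and 1, and leaving out 1 tumor gave 3 to 7 higher and 1 to 2 lower. Library size only moved the median of all genes to 0.18 and the share of higher calls from 46.1% to 58.3%. With the replicate number as a block, 4 members passed as higher (*C1qa*, *C1qb*, *C1qc* and *Spp1*, with log2 fold changes of 1.73, 1.50, 1.58 and 1.89). *C1qb* came in, and *Adgre1* dropped out (0.75, edgeR adjusted p = 0.162). Tumors of the same number correlated at 0.03, -0.12 and 0.11, and LC replicate 1 correlated best with IP + LC replicate 2. No pairing by number was seen, but 3 tumors per group with LC replicate 1 apart cannot decide whether the numbers mark pairs. Over all genes the block gave 3410 calls in place of 4088. With 3 UMIs as the floor, a gene below 5.17 CPM in LC replicate 1, or 1.75 to 2.54 in the other tumors, could not be told from 0.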
